A study of Rattus norvegicus with 12 samples.

Results

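The natural killer gene complex of the rat is a cluster of genes for C-type lectin-like receptors on chromosome 4. The differentially methylated m6A peaks studied here are those of the deposited list whose start lies on that chromosome between 211800000 and 213500000 of the rn5 assembly, on either strand. These were 10 of the 4014 peaks in the list. The rule uses position alone and no score, but the interval was proposed with the positions of its peaks known. Of the 10 peaks, 4 were named by the study's tables, at Olr1, Klrc2, Klri2 and Ly49i9, and 6 had no gene name in the sources used here.

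The nerves came from young female Wistar rats of 100 to 120 g. The Control group had uninjured sciatic nerves, and the SNI group had the tissue around the centre of a sciatic nerve injury, taken 7 days afterwards. The labels name no transgene or drug for either group, and the kind of injury is not given in the sources used here. Each group had 3 replicates, and each replicate gave an m6A immunoprecipitation (IP) library and an input library of fragmented poly(A) RNA, so that there were 12 libraries in all. The list is a single comparison of SNI with Control over all replicates, and it gives neither the depth of a library nor a value per library, so that no replicate error can be computed for any peak.

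N6-methyladenosine (m6A) is a methyl mark on adenosines inside mRNA, set by methyltransferases, removed by demethylases and bound by reader proteins that act on the fate of the transcript. In the immunoprecipitation an antibody pulls down fragments that carry the mark, and the stretches where such fragments gather are the peaks. Natural killer cells decide whether to attack a cell by weighing activating against inhibitory receptors, and in rodents most of these receptors are lectin-like proteins of the Klr and Ly49 families encoded side by side in this complex. The same cluster holds lectin-like receptors of myeloid and endothelial cells, of which Olr1, also called LOX-1, is one.

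The score of a peak is the authors' −log10 of its p-value for SNI against Control, so that a higher score marks a difference less likely under their test, in either direction. The list holds only peaks that passed the thresholds of the authors, and its lowest score is 5.001. Neither the size nor the sign of a change is in it, and genes are not named. The study's tables give both for the peaks they name, and these columns were not used here. Transcript levels are missing from the list as well. More m6A per transcript, more transcripts and more cells that carry them therefore cannot be told apart for any peak below. The label of the interval as natural killer receptors rests on 3 of the 4 names, Klrc2, Klri2 and Ly49i9. Levels of natural killer cell markers are not in the list and were not used here.

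The Olr1 peak ran from 211885241 to 211885740 on the minus strand. Olr1 is a scavenger receptor that takes up oxidized low-density lipoprotein, and it is known from endothelial cells and macrophages more than from natural killer cells. With 499 bases it was the longest of the 10 peaks, and 88.3% of all listed peaks were shorter. Its score of 7.58 ranked 1863 in the list, near the median of all peaks, which was 7.46. Unnamed peaks lay 23.8 kb before it and 12.8 kb after it, the 2 shortest gaps between members.

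Klrc2, also named NKG2C, encodes an activating receptor that pairs with CD94, the product of Klrd1 in the same cluster, and binds non-classical class I molecules. Its peak ran from 212085090 to 212085286 on the minus strand, over 196 bases. The score was 5.32, the lowest of the interval. It ranked 3783 in the list, where 5.75% of the peaks scored lower. The Klrc2 peak was thus close to the threshold of the list.

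Klri2 encodes an activating receptor that pairs with the product of Klre1, which lies in the same cluster. Its peak ran from 212206301 to 212206516 on the minus strand, 121.0 kb after the end of the Klrc2 peak. It was 215 bases long and scored 8.69, at rank 1093. It was similar in length to the Klrc2 peak and had a higher score.

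Ly49i9 belongs to the Ly49 family, whose members form pairs on the surface of natural killer cells and bind class I molecules. The letter i in its name marks an inhibitory member. Its peak was the last of the interval and ran from 212860534 to 212860641 on the minus strand, over 107 bases. The score of 8.91 was the highest of the 4 named peaks, at rank 1012, and 74.8% of the listed peaks scored lower. In length it was the shortest of the named peaks, so that the 4 named peaks were ordered by length as Olr1, Klri2, Klrc2 and Ly49i9 and by score as Ly49i9, Klri2, Olr1 and Klrc2.

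The study's tables that give gene names were matched by identical start and end. Klri2 and Ly49i9 stand in its short table of the peaks of largest change, and Olr1 and Klrc2 stand in its long table. The copy of the long table used here is shortened to 526 rows, all of which are in the list. The 6 unnamed peaks are not among these rows, and no gene was assigned to them by position, because the reference gene table is of another assembly (GRCr8).

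The unnamed peaks held the 3 highest scores of the interval, and all 3 lay around Olr1. The first ran from 211831001 to 211831340, scored 9.22 at rank 869, and was the single peak of the interval on the plus strand. The second, between 211861121 and 211861491, scored 10.1 at rank 610, more than any other peak of the interval. The third began after the Olr1 peak and ran from 211898526 to 211898772, with a score of 9.999 at rank 624. These peaks were 339, 370 and 246 bases long. Together with Olr1 they formed a group of 4 that ended 186.3 kb before the Klrc2 peak.

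The other 3 unnamed peaks lay between Klri2 and Ly49i9, all on the minus strand. They were shorter than those around Olr1. The peak from 212460732 to 212460840 had 108 bases and a score of 8.07, just above 8. The peak from 212604228 to 212604300 had 72 bases and a score of 6.86, the lowest of the unnamed peaks. The peak from 212664068 to 212664080 had 12 bases and a score of 7.75, and only 78 of the 4014 listed peaks (1.94%) were at most that long.

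**Figure D1:**
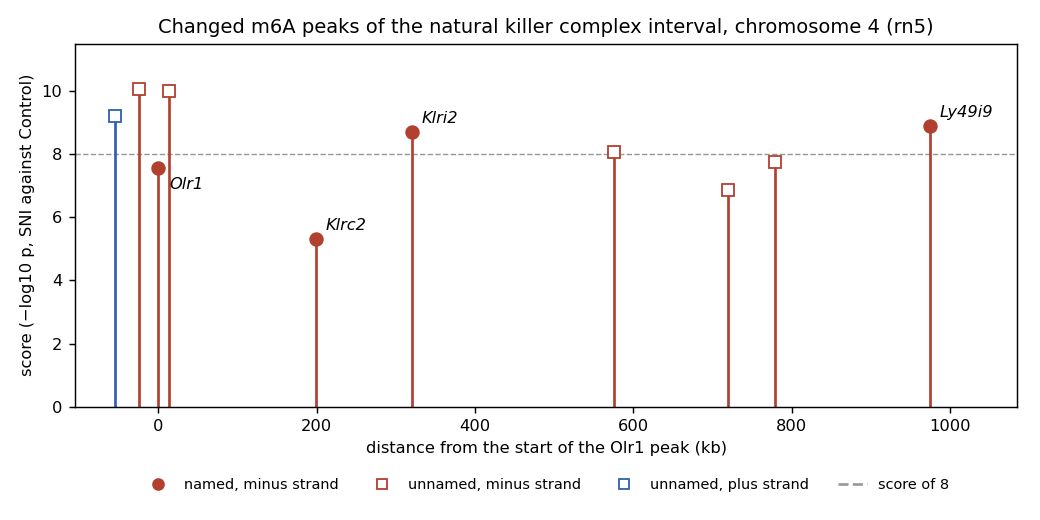
Score of each of the 10 peaks (vertical axis, −log10 p) against the distance of its start from the start of the Olr1 peak (horizontal axis, kb), with filled circles for the 4 named peaks, open squares for the 6 unnamed ones and blue for the plus strand. The 3 highest scores, 9.22, 10.1 and 9.999, belong to unnamed peaks around Olr1, and the Klrc2 peak is the lowest at 5.32.

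The order of the genes helps to place the named peaks, and it was read from the GRCr8 gene table without its coordinates. In that assembly Olr1, Klrc2 and Klri2 follow each other in the same order as their peaks do in rn5. Clec7a, the receptor for fungal glucans, is the last gene before Olr1. From Olr1 to Klrc2 the table lists 6 protein-coding genes between them, which are Tmem52b, Gabarapl1, Klre1, Klrd1, Klrk1 and Klrc3. Klrk1 encodes NKG2D, an activating receptor for stress-induced ligands. Between Klrc2 and Klri2 lie Klrc1, which encodes the inhibitory receptor NKG2A, and Klri1, the inhibitory relative of Klri2. No listed peak lay between those of Klrc2 and Klri2. After Klri2 and Klrh1 the table runs through the Ly49 genes from Klra4 to Klra2, with 22 protein-coding genes and 9 pseudogenes, 20 of the protein-coding genes having a Ly49 or Klra symbol. Ly49i9 was not matched to this table. Members of this family are closely similar in sequence, and reads of one can align to another, so that the gene to which a peak here belongs is uncertain.

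Most peaks of the interval shared a strand. Of the 10 peaks, 9 lay on the minus strand (90.0%, exact 95% Clopper-Pearson interval 55.5% to 99.7%), against 156 of 265 (58.9%, 52.7% to 64.9%) on the rest of chromosome 4 and 2217 of 4014 (55.2%) in the whole list. These intervals cover counting error only, and since peaks of one cluster are not independent replicates the shares were not tested. All 4 named peaks were on the minus strand, which in the RefSeq promoter table of GRCr8 is also the strand of Olr1, Klrc2 and Klri2. How a strand was given to each peak is not stated in the sources used here. If it was taken from the annotated gene, this match was fixed in advance, and it was not tested. From Olr1 to Klra2, 32 protein-coding genes had a strand in that table, and 29 of them were on the minus strand. The 3 on the plus strand were Tmem52b, Gabarapl1 and Klre1. Among all 1147 protein-coding genes of chromosome 4 with a strand there, 49.1% were on the minus strand. On the other side of Olr1, from Cd69 to Clec7a, 4 of the 7 protein-coding genes with a strand were on the minus strand and 3 on the plus strand, and the single plus-strand peak lay on this side of the Olr1 peak. Which gene each unnamed peak belongs to was not tested. Along the chromosome the 9 minus-strand peaks followed each other without a break, and of 52 runs of peaks on one strand 7 were longer.

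Counted per Mb, the interval held more peaks than the rest of the chromosome. The 10 peaks in 1.7 Mb gave 5.88 peaks per Mb (exact 95% Poisson interval 2.82 to 10.8), against 265 peaks in 245.9 Mb or 1.08 per Mb (0.952 to 1.22) on the rest of chromosome 4, measured from its first to its last peak. The ratio was 5.46 (2.59 to 10.2). A stretch of 66.3 Mb of chromosome 4, from 67261058 to 133598268, held no listed peak, while the longest such stretch on any other chromosome was 22.4 Mb. Without that stretch the rest of the chromosome had 1.48 peaks per Mb, and the ratio fell to 3.99 (1.89 to 7.44). In the 5 Mb before the interval there were 5 peaks and in the 5 Mb after it 8 peaks, or 1.30 per Mb, which gave a ratio of 4.52 (1.78 to 11.2). Because of how the interval was proposed, and since its borders lie in stretches without peaks, the ratios describe this interval and were not tested.

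Chromosome 4 was also divided into windows of 1.7 Mb, counted outward from the interval. Of the 146 other windows, 4 held more peaks than the interval, with 11, 12, 18 and 19 peaks, and 85 held none, of which 38 lay inside the stretch of 66.3 Mb. The interval was therefore the fifth of the chromosome by number of peaks. A shared strand was also common in these windows, with 18 of 18 peaks on the minus strand in one, 11 of 11 on the plus strand in another, and 15 of 19 and 8 of 12 on the minus strand in the others. The median gap between neighbouring peaks was 121.0 kb in the interval and between 9.41 and 21.9 kb in the 4 windows.

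**Figure D2:**
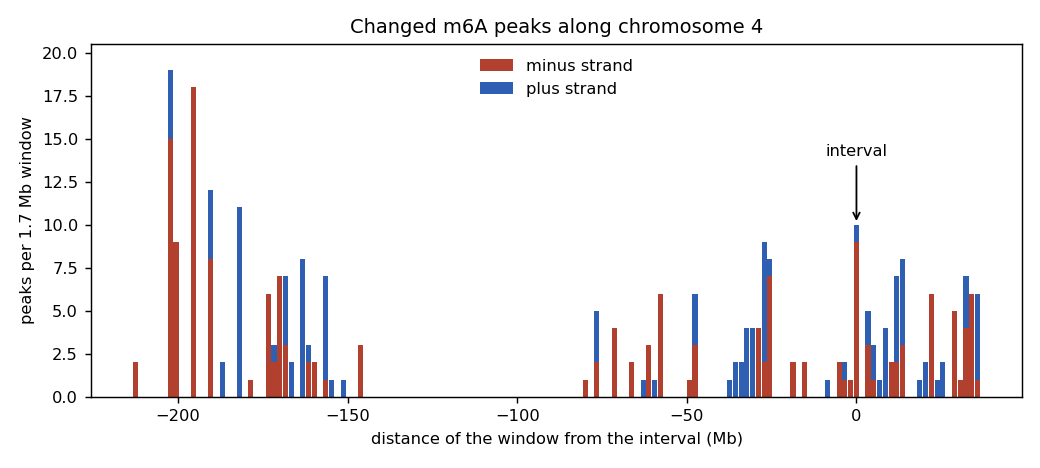
Number of listed peaks in each 1.7 Mb window of chromosome 4 (vertical axis) against the distance of the window from the interval (horizontal axis, Mb), stacked by strand (red minus, blue plus). The interval holds 10 peaks, 9 of them on the minus strand, and 4 windows at lower positions hold between 11 and 19, while the broad blank part is the stretch of 66.3 Mb without a peak.

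The peaks of the interval stood singly. Gaps between neighbours ran from 12.8 kb, after Olr1, to 254.2 kb, after Klri2, and their median of 121.0 kb was above the median of 43.2 kb over the 274 gaps of chromosome 4. Of the 10 peaks, 0 had another listed peak within 10 kb (exact 95% interval up to 30.8%). On the rest of chromosome 4 this held for 141 of 265 peaks (53.2%, 47.0% to 59.3%), and in the whole list for 2136 of 4014 (53.2%). The 10 peaks were thus spread along the 1.03 Mb from the first to the last of them, with none lying close to another. The nearest listed neighbour before the interval, from 211002557 to 211002603 on the minus strand, scored 6.81. It ended 828.4 kb before the first member, and 54 of the 274 gaps of the chromosome were longer than this one. The nearest after the interval, from 215203460 to 215203600 on the plus strand, scored 10.4. It started 2343 kb after the Ly49i9 peak, and 24 of the 274 gaps were longer.

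Scores in the interval ran from 5.32 to 10.1, around a median of 8.38, and the quartiles were 7.62 and 9.14. The median was 7.52 on the rest of chromosome 4 and 7.46 in the whole list. A score of at least 8 was found for 6 of the 10 peaks (60.0%, 26.2% to 87.8%), against 37.1% of the whole list and 39.6% (33.7% to 45.8%) of the rest of chromosome 4. These shares were not tested either, since peaks of one cluster are not independent replicates. Of the 4 named peaks, 2 reached 8, Klri2 and Ly49i9, and of the 6 unnamed ones 4 did. The best rank of the 10 was 610, and the maximum of the list was 13.6.

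Lengths ran from 12 to 499 bases. Their median was 205.5 bases and their quartiles were 107.2 and 315.8, where the rest of chromosome 4 had a median of 157 and the whole list a median of 152. Under 100 bases were 2 of the 10 peaks (20%, 2.52% to 55.6%), against 25.3% of the rest of chromosome 4 and 26.7% of the list. The longer peaks stood at the Olr1 end, where all 4 had at least 246 bases, and the 4 peaks after Klri2 had at most 108 bases.

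**Figure D3:**
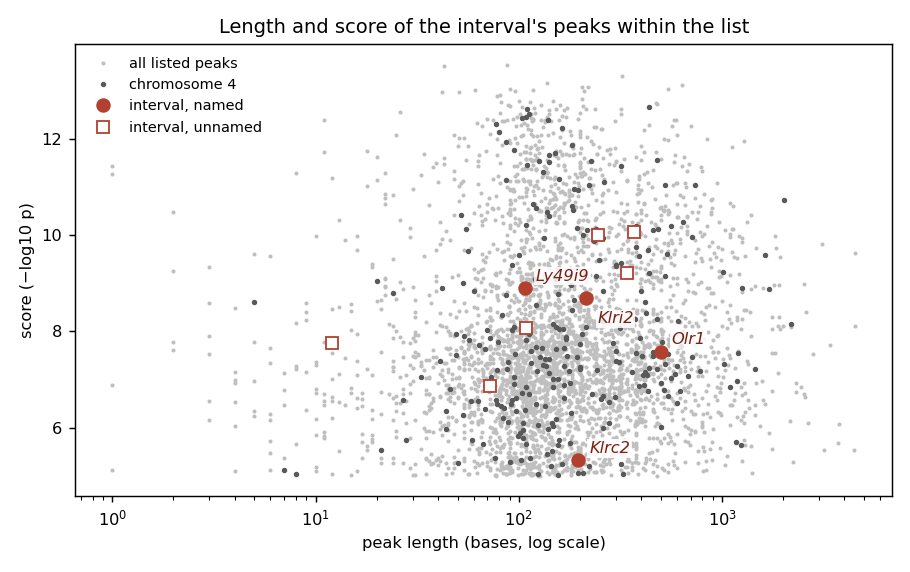
Score (vertical axis, −log10 p) against length (horizontal axis, bases on a log scale) of all 4014 listed peaks in light grey, those of chromosome 4 in dark grey and the 10 of the interval in red, named ones filled. The members lie within the range of the other peaks, from 12 to 499 bases and from 5.32 to 10.1 in score.

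Many borders in the list fall on steps of 20 bases, with starts 1 base past a multiple of 20 and ends at one. Both borders did so for 2 of the 10 peaks, Olr1 and the first unnamed peak, or 20% against 12.3% of the list. Neither border did so for Klrc2, Ly49i9 and the unnamed peak after Olr1, 3 of 10 (30.0%, 6.67% to 65.2%) against 51.6% of the list. For the other 5 peaks, Klri2 among them, 1 border was on a step.

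Other genes of natural killer cell recognition were looked up in lists drawn up by function, with earlier results of these data known. Among 41 lectin-like receptors of the complex, the 4 described above were those with a named peak. The list includes these 4 members, so that finding them was fixed in advance. Klrd1, Klrk1, Klrc1 and Klri1 had none in the rows used here. In the rows of the long table alone, 2 of the 41 were named, Olr1 and Klrc2. The same rows named 361 of the 23154 protein-coding genes of the GRCr8 table (1.56%). Since only part of the study's long table was used, all these counts are lower bounds, and with 2 genes a list nothing was read from the difference.

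Among 24 class I molecules and related ligands, 3 had a named peak, 2 of them in the long table, against the same 1.56% of all genes. B2m encodes the light chain shared by class I molecules, and its peak on chromosome 3 from 120627498 to 120627585 (plus strand, 87 bases) scored 6.93. Raet1c encodes a ligand of NKG2D, and its peak on chromosome 1 from 2813555 to 2813816 (minus strand, 261 bases) scored 6.11. RT1-M2 encodes a non-classical class I molecule, and its peak on chromosome 20 (minus strand, 124 bases) scored 8.58. The score of RT1-M2 lay between those of Klrc2 and Klri2, and those of B2m and Raet1c were below 7.

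Among 31 adaptors, signalling proteins and cytotoxic effectors of natural killer cells, 2 genes had 5 named peaks, both in the long table with its 1.56% of all genes. Lcp2 encodes SLP-76, an adaptor of activating receptors, and its 4 peaks lay on the plus strand of chromosome 10 within 32.4 kb, with scores from 7.61 to 9.12 and lengths from 31 to 102 bases. Cd226 encodes DNAM-1, an activating receptor for nectin and nectin-like ligands, and its peak on chromosome 18 from 85430009 to 85430160 (plus strand, 151 bases) scored 7.33. Lcp2 had several named peaks, where each named gene of the complex had 1 named peak. Since the long table is shortened here and other peaks of the interval have no gene name, nothing was read from this contrast. The perforin and granzyme genes, which encode the proteins that kill target cells, had no named peak in the rows used here.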

How the data were processed

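MeRIP-seq libraries were made from 3 Control and 3 SNI sciatic nerves, an IP and an input library each. Trimming by the authors used Cutadapt 1.9.3 and alignment to rn5 used HISAT2 2.0.4. Peaks came from MACS and differential sites from diffReps, whose versions are not given in the sources used here. The authors deposited 1 list of the differential peaks, with −log10 p-values as scores. No depth or value per library is in the list. Shares, densities and density ratios were therefore given exact 95% Clopper-Pearson or Poisson intervals, for counting error only. The 95% intervals of the medians, used only for comparing alternatives, are order statistics of the peaks and treat them as independent. Coordinates are printed as in the list, and length is end minus start.

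Members were taken by start position. Genes named were the 4 of the interval and those on 3 lists with a peak of identical start and end in the study's tables (RT1-M2 by start). The members and lists were chosen with earlier results of these data known. Density used the span from the first to the last peak. No tests were run. Alternatives were score and length thresholds, merging, other borders and other backgrounds. RefSeq (GRCr8) gave gene order and strand. Functions were tested on simulated data. The software was scipy 1.17.1, pandas 2.3.3 and numpy 2.4.6 under Python 3.11.15, with figures from matplotlib 3.10.9.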

Additional observations from a re-analysis of the deposited data

How the results depend on the processing

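Of 38 values under an alternative, 36 lay inside the 95% interval of the reported value (counts and ranks: within 1.5 times of it) and 2 moved. A score of at least 8 left 6 of the 10 peaks, and taking the interval from the first to the last named peak raised the share on the minus strand from 90.0% to 100%, since this leaves out the plus-strand peak before Olr1. The density ratio ran from 3.99 without the empty stretch of chromosome 4, an alternative chosen after seeing the data, to 7.95 with a score of at least 8. The interval was proposed with the positions of its peaks known, and the alternatives draw on the same peaks. A ratio above 1 in each of them was therefore favoured in advance and is not support for the density. The median score ranged from 7.91 to 9.06 and the median length from 152 to 230.5 bases. The 9.06 came from keeping only scores of at least 8, which cannot lower that median. A minimum length acts on the median length in the same way. With 10 peaks the intervals are wide, 6.86 to 9.999 for the median score. Those of the medians also treat the peaks of one cluster as independent, which they are not. Most alternatives kept nearly the same peaks, so that lying inside the intervals was largely fixed in advance and is no evidence of stability. Merging peaks less than 100 bases apart joined none of the 10. No replicate could be left out and no test run, because the list gives no values per library. No paired analysis was possible because the list carries no replicate columns. What the depth of the libraries limits is unknown from the list, and the read counts that the study gives per library were not used here. In them the raw counts of the Control inputs stand under SNI in the RNA-seq part, and those of the SNI inputs under Control.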

Other observations

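Each peak name in the list ends in a running number, and within every chromosome these numbers rose with position, with 0 of 4014 out of order. What the numbers count is not given in the sources used here. From the first to the last peak of the interval they ran from 953473 to 953948, a span of 476 numbers, of which 10 (2.10%) are in the list. On chromosome 4 without the interval, 265 of 98485 numbers (0.269%) are in the list. That span begins and ends on a listed peak, which favours a higher listed share than the full 1.7 Mb would give. Over its 1.03 Mb there were 462 numbers per Mb, and the rest of the chromosome without its longest empty stretch had 543. That stretch of 66.3 Mb took up 606 numbers, or 9.14 per Mb. These comparisons were chosen after the values were seen, and no test was run on them.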
